A study of Mus musculus with 1457 samples.

Results

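Cells sorted as passing through the endothelial-to-hematopoietic transition (EHT) were set against hemogenic endothelium (HE) in the embryos whose cell titles say E11.5. Both groups came from the aorta-gonad-mesonephros region of ICR mouse embryos that carried 1 Gfi1 Tomato reporter allele and 1 Gfi1b GFP reporter allele beside wild-type copies. The EHT gate took CDH5+ KIT+ CD41+ cells with the GFI1 reporter, and the HE gate took CDH5+ cells with the GFI1 reporter but without KIT or CD41. Both gates left out TER119+, CD45+ and GFI1b+ cells. The titles of these cells name E11.5 while their stage field reads E10.5, so their stage is uncertain and they are called titled E11.5 here. All 42 EHT cells and 39 of 43 HE cells were kept, which makes 81 of 85 cells with these labels and of 1457 cells in the series. A cell was kept with at least 100000 reads and with under 1% of its reads in 7 globin genes. The 4 HE cells left out held 14 to 180 reads, the shallowest cell kept held 139361 reads, and no cell was lost to the globin limit, the highest kept being at 0.0493%.

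The series profiled single sorted cells by Smart-seq2, a method that amplifies full-length polyA RNA without molecular identifiers. No label names an embryo or litter, so each gate counts as 1 sample and no p-value can be given; intervals cover counting error only, at 95%. Cells with the same gates and genotype and with E10.5 in both labels (41 EHT cells, and 79 of 95 HE cells after the same filters) are used as a comparison set.

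In the embryonic aorta, some endothelial cells of the vessel wall switch fate and become blood stem and progenitor cells. Runx1 starts this change, and its targets Gfi1 and Gfi1b, a pair of repressors, shut down endothelial genes while Spi1, which encodes the transcription factor PU.1, and Myb take part in setting up blood gene expression. A cell in this transition rounds up and leaves the vessel wall, and it keeps some endothelial surface proteins while it gains KIT and CD41.

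Reads per cell ran between 193483 and 817620 (median 305240) in EHT cells and between 139361 and 917275 (median 375883) in HE cells. With every cell thinned to 100000 reads, the median number of genes read was 6729 in EHT cells (5014 to 8190) and 4705 in HE cells (2155 to 6592), so the EHT cells held more detected genes at equal depth. In the E10.5 set those medians were 6659 and 5748. Mitochondrial genes took a median of 3.61% of reads in EHT cells and 3.22% in HE cells. Reads of Xist, the RNA of the inactive X chromosome, were present in 33 of 42 EHT cells and in 17 of 39 HE cells; its part in the results was not tested. Some cells stood apart: 3 HE cells had under 3000 genes with 7.37% to 11.7% mitochondrial reads, 1 HE cell has a title number apart from the run of the other 42 and held 1390 CPM (reads per 1000000 reads) of Kit, and 1 EHT cell had no read of Kit, Runx1, Gfi1 or Spi1. In addition, 5 EHT cells had reads of at least 3 of 7 macrophage marker genes.

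The gate labels were first read against the RNA. Kit, the stem cell factor receptor used in the gate, was at 843 CPM in EHT cells (95% interval 828 to 857; summed reads) and 58.7 CPM in HE cells (55.1 to 62.4). Per cell it ran between 0 and 2761 CPM with a median of 834 CPM in EHT cells, and between 0 and 1390 CPM with a median of 0 in HE cells. Reads were found in 41 of 42 EHT cells and 8 of 39 HE cells. The ranges overlapped, with 1 HE cell above the EHT median and 3 EHT cells above the highest HE cell. The log2 ratio of EHT over HE was 3.84 (3.75 to 3.94), and 4.44 without the HE cell whose title number stands apart. Itga2b, which encodes the gate protein CD41, was at only 15.9 CPM in EHT cells and 6.77 CPM in HE cells, with reads in 15 of 42 and 3 of 39 cells. Gfi1, whose reporter defines both gates, had reads in 38 of 42 EHT cells and 13 of 39 HE cells at 179.2 CPM and 101.2 CPM. Its log2 ratio of 0.82 (0.74 to 0.91) was under 2-fold. Gfi1b, used to exclude cells from both gates, was at 20.7 CPM in 11 EHT cells and at 0.234 CPM in 2 HE cells. Cdh5, the vascular cadherin that both gates require, was read in all 42 EHT cells and all 39 HE cells, at 546 CPM (534 to 558) and 1062 CPM (1047 to 1077), a log2 ratio of -0.96 with an upper bound of -0.92. Its per-cell median was 471 CPM in EHT cells and 1063 CPM in HE cells, with overlapping ranges (51.7 to 1395 CPM and 212.9 to 4054 CPM).

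Ptprc, on chromosome 1 (GRCm38 chr1:138062861-138175708), encodes the leukocyte phosphatase CD45, whose protein both gates excluded. Its RNA was at 173.6 CPM in EHT cells (2614 reads), with a per-cell median of 129.3 CPM and a maximum of 1265 CPM, against 0 reads in 17129675 reads of HE cells. That is at least 991-fold higher in EHT cells when the HE sum is set to the floor of 3 reads. Reads of Ptprc were present in 31 of 42 EHT cells (73.8%, exact Clopper-Pearson interval 57.96% to 86.1%) and in 0 of 39 HE cells (upper Clopper-Pearson bound 9.03%). In the E10.5 set Ptprc was read in 8 of 41 EHT cells (19.5%, 8.82% to 34.9%) and in 1 of 79 HE cells. Thinning to 100000 reads left 30 of 42 EHT cells in the titled E11.5 set and 8 of 41 in the E10.5 set. The difference between the sets was not tested, since each has 1 sample per gate.

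Spi1, the PU.1 gene, was at 270.3 CPM in EHT cells (262.1 to 279) and 7.30 CPM in HE cells (6.07 to 8.69), a log2 ratio of 5.21 (4.95 to 5.48). Per cell it ran between 0 and 617 CPM with a median of 270.98 CPM in EHT cells, and between 0 and 167.9 CPM with a median of 0 in HE cells. Reads were present in 40 of 42 EHT cells and 4 of 39 HE cells, and 31 EHT cells lay above the highest HE cell. Myb, a regulator of definitive blood cells, had 242.2 CPM in EHT cells and 5.43 CPM in HE cells (log2 ratio 5.48, 5.18 to 5.79), with reads in 41 of 42 and 3 of 39 cells. Runx1, the factor that starts the transition, had 194.04 CPM in EHT cells and 68.01 CPM in HE cells (log2 ratio 1.51, 1.41 to 1.61). Without the highest cell of each gate that ratio was 2.47, outside the interval, which covers counting error only. Reads of Runx1 were present in 41 of 42 EHT cells, with a per-cell median of 190.96 CPM, and in 10 of 39 HE cells, whose highest cell reached 875 CPM and exceeded every EHT cell. Runx1 or Gfi1 was read in 41 EHT cells and in 16 of the 39 HE cells. In the E10.5 set, HE cells had reads of Runx1 in 44 of 79, Kit in 55, Myb in 20 and Spi1 in 21. The titles of these E10.5 HE cells fall in separate runs of numbers that are pooled here. Most of those with reads of Myb or Spi1 were in the run with the lowest numbers, and differences between runs were not tested. At 100000 reads per cell the Kit share was 17.9% of HE cells titled E11.5 and 63.3% of E10.5 HE cells.

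**Figure D1:**
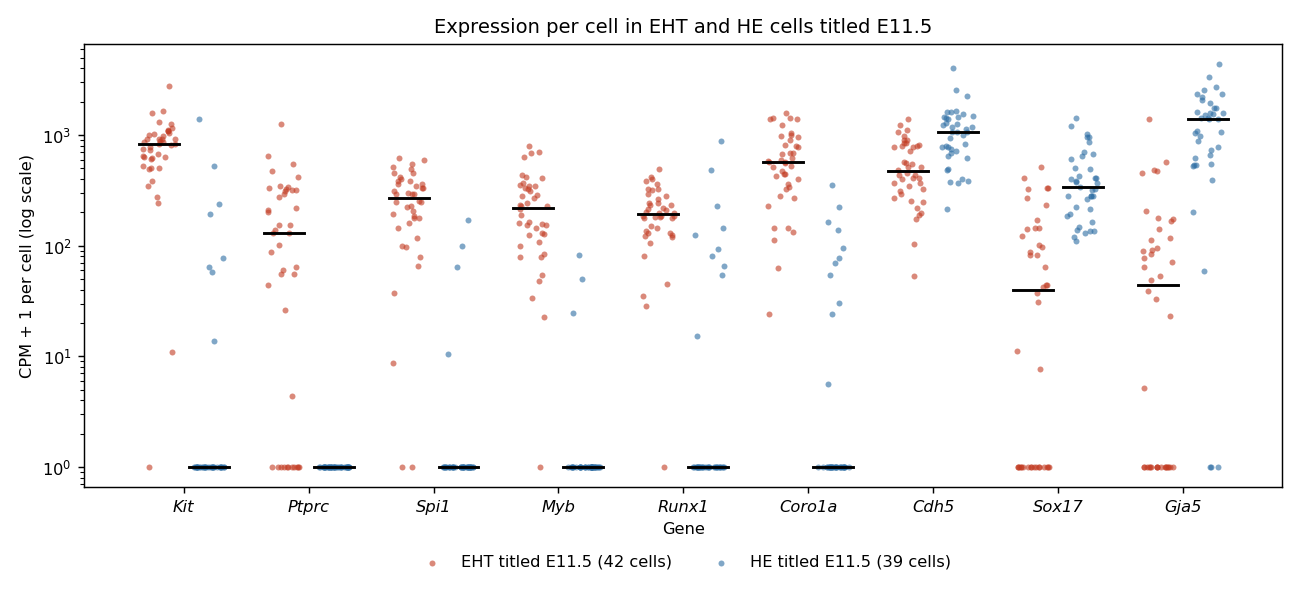
CPM plus 1 (log scale) in each EHT cell (left of each pair, 42 cells) and HE cell (right, 39 cells) titled E11.5, with black bars at the medians. Kit, Ptprc, Spi1, Myb, Runx1 and Coro1a have a median of 0 in HE cells. Cdh5 has reads in every cell of both gates, and Sox17 and Gja5 are lower in EHT cells.

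Across the table, 10923 genes had a mean of at least 5 CPM over the gates and are called measured. A gene counted as higher or lower with a difference of at least 2-fold both in summed CPM and in the mean of per-cell CPM. By this rule 1572 genes (14.4% of those measured) were higher in EHT cells and 1309 (12%) were lower, with a median log2 ratio over all measured genes of 0.10. Those shares are the background for the counts of every list of the titled E11.5 set below. A gene near 0 in HE cells is measured only if EHT cells held about 10 CPM or more of it, so the share of members called in a list of blood genes depends partly on this limit. For 735 measured genes the HE value was under 5 CPM, and for 475 the EHT value was.

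Of the 30 genes in the list of blood transcription factors, 26 were measured, 11 were higher in EHT cells and none was lower, with a median log2 ratio of 0.65. The 14.4% of all measured genes that were higher are the background for that count. Nfe2, a factor of megakaryocytes and red cells, was at 194.5 CPM in EHT cells and 17.4 CPM in HE cells (log2 ratio 3.48), with reads in 39 of 42 and 12 of 39 cells. Irf8, a factor of monocytes and B cells, was at 14.9 CPM in 9 EHT cells and had no read in HE cells, which is at least 84.9-fold higher. Without the 5 EHT cells with macrophage markers its log2 ratio was at least 5.06, against at least 6.41 with them. Genes of the stem cell network were named after their values were seen: Gata2 stood at 162.8 CPM in EHT cells and 239.3 CPM in HE cells, Lmo2 at 365 CPM and 534 CPM, Tal1 at 111.8 CPM and 98.8 CPM, and Fli1 at 154.3 CPM and 159.7 CPM. These 4, which endothelium also expresses, were within 2-fold between the gates. Mecom, another stem cell factor, was within 2-fold as well, at 328 CPM in EHT cells and 603 CPM in HE cells.

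Genes of leukocyte signalling and of the blood cell cytoskeleton differed most among the lists with over 20 measured members. Of 30 genes 28 were measured, 26 were higher and none was lower, with a median log2 ratio of 4.04. Of those 28, 16 were under 5 CPM in HE cells. Rac2, the GTPase of blood cell movement, had 159.2 CPM in EHT cells (per-cell median 25.9, highest 897 CPM) and 0 reads in HE cells, at least 909-fold higher. Rac2 had reads in 23 of 42 EHT cells and in none of 39 HE cells. Tyrobp, an adaptor of myeloid receptors, had 125.9 CPM in 20 EHT cells and 0 reads in HE cells. Without the 5 EHT cells with macrophage markers, Tyrobp's log2 ratio of at least 9.49 became at least 7.15, and that of Rac2 at least 9.16 against at least 9.83. Nckap1l, the blood-cell member of the WAVE actin complex, had 72.1 CPM in EHT cells (19 cells) and no read in HE cells, at least 411-fold higher, and without those 5 cells its log2 ratio was at least 7.98 against at least 8.68. Sash3, a lymphocyte adaptor on the X chromosome, had 113.6 CPM in EHT cells (27 of 42) and 0.350 CPM in HE cells, where 1 cell had reads. Coro1a, an actin regulator of blood cells named after its values were seen, was read in all 42 EHT cells at 640 CPM and in 11 HE cells at 30.9 CPM.

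Among surface proteins and cytokine receptors of blood cells, 25 of 30 were measured, 16 were higher and 4 lower, with a median log2 ratio of 1.78. Csf3r, the granulocyte growth factor receptor, had 50.6 CPM in 25 of 42 EHT cells and no read in HE cells, at least 289-fold higher. Csf2rb, the shared subunit of several myeloid cytokine receptors, had 31.4 CPM in 12 EHT cells and no read in HE cells, but its near-identical copy Csf2rb2 makes its value uncertain. Without the 5 EHT cells with macrophage markers the log2 ratio of Csf2rb was at least 6.31, against at least 7.49 with them. Flt3, a receptor of lymphoid and multipotent progenitors, had 466 reads in 14 EHT cells and 1 read in HE cells, a ratio of 530 without the floor of 3 reads, with a log2 interval of 6.56 to 14.36. These receptors belong to several blood lineages. The 4 lower genes include Cd34, a marker of both endothelium and progenitors, at 856 CPM in EHT cells and 2073 CPM in HE cells, which was named after its values were seen.

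Granulocyte and macrophage genes had 20 members, of which 11 were measured and all 11 were higher (median log2 ratio 6.88). Of these 11, 9 were under 5 CPM in HE cells. Mpo, the peroxidase of neutrophil granules, was at 113.2 CPM (107.9 to 118.7) in EHT cells, with reads in 24 of 42 cells and a per-cell median of 35.99 CPM. It had no read in HE cells, which is at least 646-fold higher in EHT cells, and in the E10.5 set it was at 123.7 CPM in 24 of 41 EHT cells. Prtn3, a neutrophil protease, was at 103.6 CPM in 27 EHT cells and at 0 in HE cells, at least 592-fold higher. Further members of the list were named after their values were seen. Ctsg, Ngp, S100a8 and S100a9 had no read in either gate. Elane was at 1.66 CPM in 1 EHT cell and Ms4a3 at 9.23 CPM in 7, both with no read in HE cells.

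Of 7 macrophage markers (Csf1r, Adgre1, Cx3cr1, Mrc1, C1qa, C1qb and Lyz2), 6 were read in 4 to 9 EHT cells each, and Lyz2 in most. Lyz2, the lysozyme of macrophages and granulocytes, was at 414.9 CPM in 38 of 42 EHT cells and at 46.3 CPM in 8 of 39 HE cells, and it was read in 34 of 41 E10.5 EHT cells. C1qb, a complement component of tissue macrophages, had 135.7 CPM in EHT cells, all of it in 5 of 42 cells (0 to 1954 CPM per cell, median 0), and no read in HE cells. Cx3cr1, the fractalkine receptor, had 76.9 CPM in 4 EHT cells and 0.409 CPM in 1 HE cell. Csf1r, the macrophage growth factor receptor, had 81.6 CPM in 9 EHT cells and 0.467 CPM in 1 HE cell. Of the 7 markers, 5 EHT cells had reads of at least 3 and no HE cell did. Their sum, Lyz2 included, had a median of 367 CPM per EHT cell (0 to 5651 CPM), and a median of 0 per HE cell (0 to 557 CPM), while no E10.5 EHT cell had reads of 3 or more. Of the 5 cells, 4 had 723 to 1255 CPM of Kit and 1 had 9.90 CPM, and all 5 had reads of Cdh5, at 51.7 to 293.8 CPM, and of Ptprc, at 86.5 to 473 CPM. The gate excluded CD45+ cells and required CDH5, KIT and CD41. Without these 5 cells, chosen after the data were seen, 1494 genes were higher and 1298 lower, and 5 granulocyte and macrophage genes were measured and 4 were higher. Without them the log2 ratio of Csf1r was 5.10, against 7.45 with them. Mrc1, a mannose receptor also on the venous list, had 61.7 CPM in 4 EHT cells and 2.22 CPM in 1 HE cell, and its log2 ratio was 4.80 with them and -3.27 without. That of Cx3cr1 was 7.56 with them and -0.83 without. The part of macrophages in these values was not tested.

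Because PU.1 is the product of Spi1, which was read in 40 of 42 EHT cells, the start sites of the named higher genes were searched for the PU.1 letters GAGGAAGT on both strands. Windows of 250 bases before to 50 after each start came from RefSeq on GRCm38.p6. Of the 15 genes with the highest ratios 9 had a window, and 3 held the letters. They are shown 5′ to 3′ on the gene's strand with the letters, or their reverse, in capitals:
Mpo (chr11:87793534-87793833, plus strand): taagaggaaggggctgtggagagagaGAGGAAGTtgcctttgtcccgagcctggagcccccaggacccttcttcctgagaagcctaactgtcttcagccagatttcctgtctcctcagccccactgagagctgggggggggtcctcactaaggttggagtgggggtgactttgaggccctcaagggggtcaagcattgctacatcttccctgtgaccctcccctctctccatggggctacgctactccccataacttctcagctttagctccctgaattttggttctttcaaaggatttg
Prtn3 (chr10:79879417-79879716, plus strand): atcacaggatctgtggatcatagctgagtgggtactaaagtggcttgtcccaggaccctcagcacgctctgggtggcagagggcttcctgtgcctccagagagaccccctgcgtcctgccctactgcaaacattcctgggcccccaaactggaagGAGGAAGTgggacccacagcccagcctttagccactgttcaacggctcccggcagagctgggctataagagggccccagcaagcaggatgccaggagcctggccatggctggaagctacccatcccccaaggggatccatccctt
Samsn1 (chr16:75909217-75909516, minus strand): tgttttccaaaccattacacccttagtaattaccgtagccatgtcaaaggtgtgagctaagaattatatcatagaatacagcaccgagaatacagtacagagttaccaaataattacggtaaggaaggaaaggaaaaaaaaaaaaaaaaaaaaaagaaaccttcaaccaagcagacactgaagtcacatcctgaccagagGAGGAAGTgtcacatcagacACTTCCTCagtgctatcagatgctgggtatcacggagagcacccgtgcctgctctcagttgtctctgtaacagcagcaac
In Mpo the letters lay near the upstream end of the window, in Prtn3 they began 95 bases before the start site, and in Samsn1, an adaptor of blood cell signalling, they occurred at 50 and 30 bases before it. The letters hold the core GGAA that other ETS factors also bind. Over gene lists they were in 5.82% of 1186 promoters of the higher genes, 3.10% of 967 of the lower genes and 3.67% of all 8328 measured genes with a window, while 3.20% of all windows of that table hold them. The RUNX letters TGTGGT were in 17.8% of promoters of higher genes, 12.1% of lower and 14.3% of all measured genes, and in 16.8% of all windows. These are descriptions of letters in these windows and no test was made.

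The other genes with the highest ratios were likewise at or near 0 in HE cells. Ccl9, a chemokine of myeloid cells, was at 151.01 CPM in 22 EHT cells, at least 862-fold higher, and without the deepest cell of each gate its log2 ratio was at least 9.04 against at least 9.75. Lst1, a leukocyte transcript, was read in 28 EHT cells at 102.3 CPM. P2rx1, an ATP-gated channel of platelets and leukocytes, was read in 30 EHT cells at 85.6 CPM, and Gpr171 and Ramp1, a G protein-coupled receptor and a receptor partner of the calcitonin family, in 25 and 19. These 5 had no read in HE cells. Lsp1, a leukocyte actin-binding protein, had 110.4 CPM in 27 EHT cells and 0.934 CPM in 3 HE cells. Ltb, a cytokine of lymphoid tissue induction, had 1543 reads in 26 EHT cells and 2 reads in 1 HE cell, a ratio of 878 without the floor of 3 reads, with a log2 interval of 7.92 to 12.82.

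Genes of other blood lineages were counted in the same way, against 14.4% of all measured genes that were higher and 12% that were lower. Of 10 measured megakaryocyte and platelet genes 4 were higher, 1 was lower and the median log2 ratio was 0.81. Pf4, a platelet chemokine, had 17.8 CPM in 10 EHT cells and 0.992 CPM in 1 HE cell, and its log2 ratio of 4.16 became 3.26 without the same 5 cells. Gp9, a platelet receptor subunit, had 45.2 CPM in 21 EHT cells and 3.21 CPM in 1 HE cell. Vwf, a clotting protein that endothelium also makes, was lower at 677 CPM in EHT cells and 2546 CPM in HE cells (log2 ratio -1.91, -1.94 to -1.88). Of 5 measured red cell genes other than globin none was higher or lower. The lymphoid list had 6 measured genes, 2 higher and 2 lower. Satb1, a chromatin organiser, was higher at 30.2 CPM in 25 EHT cells and 6.77 CPM in 10 HE cells, while Gata3, which developing T cells and the aorta region both use, was lower at 42.1 CPM in EHT cells and 116.9 CPM in HE cells. Ebf1, the B cell factor, had 1 read in EHT cells and 370 reads in 10 HE cells.

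Endothelial genes were lower in EHT cells, though every member except Aplnr had reads there. Of 30 pan-endothelial genes, all measured, 21 were lower and none was higher, with a median log2 ratio of -1.42, against 12% of all measured genes that were lower. Plvap, a protein of endothelial openings, was at 148.4 CPM in EHT cells (142.3 to 154.7) and 1301 CPM in HE cells (1284 to 1318), a log2 ratio of -3.13. Per cell, Plvap ran between 0 and 489 CPM with a median of 134.4 CPM in EHT cells, and between 66.3 and 3522 CPM with a median of 1037 CPM in HE cells. Of the HE cells 31 lay above the highest EHT cell. Clec14a, an endothelial lectin, was at 178.4 CPM in 29 EHT cells and 1210 CPM in 38 HE cells, and Emcn, endomucin, at 120.6 CPM and 729 CPM. Aplnr, the apelin receptor, had no read in EHT cells, but its 29.1 CPM in HE cells came from 2 cells.

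Arterial genes were lower by more: 17 of 20 measured genes were lower and 1 was higher, with a median log2 ratio of -1.99. Gja5, a connexin of arterial endothelium, was at 137.1 CPM in EHT cells (131.3 to 143.2) and 1341 CPM in HE cells (1323 to 1358), a log2 ratio of -3.29. Its per-cell median was 42.8 CPM in EHT cells and 1382 CPM in HE cells, and 19 HE cells exceeded the highest EHT cell (1386 CPM). Jag1, a Notch ligand, was at 68.3 CPM in 19 EHT cells and 708 CPM in 37 HE cells (log2 ratio -3.37). Notch4, an endothelial Notch receptor, was at 27.8 CPM in EHT cells and 250.97 CPM in HE cells. Fbln5, an elastic fibre protein of arteries, was at 11.8 CPM in 5 EHT cells and 734 CPM in 24 HE cells, a log2 ratio of -5.96. Of the 17 measured Notch pathway genes 9 were lower and 1 was higher, with a median of -1.13. The ligand Dll1 and the target Heyl had no read in EHT cells and were at 19.4 CPM in 5 HE cells and 14.5 CPM in 7 HE cells, which is at least 97.6-fold and at least 72.96-fold lower in EHT cells. Notch2, the 1 higher gene, stood at 64.5 CPM in EHT cells and 30.8 CPM in HE cells and was named after its values were seen. Venous genes had 9 measured members, 7 lower and 1 higher (Mrc1), with a median of -2.60. Flt4, a receptor of venous and lymphatic endothelium, was at 11.2 CPM in 8 EHT cells and 164.1 CPM in 25 HE cells.

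Genes of vessel shape and wall were lower as well. Of 15 measured genes that respond to blood flow 9 were lower and none was higher (median log2 ratio -1.46), and of 19 junction and caveola genes 11 were lower and none was higher (-1.37). Cav1, the main protein of caveolae, was at 14.1 CPM in 6 EHT cells and 310 CPM in 30 HE cells (log2 ratio -4.46, -4.67 to -4.26), and 17 HE cells lay above the highest EHT cell. Its partners Cav2 and Sdpr (also called Cavin2) were at 6.44 CPM and 9.03 CPM in EHT cells and at 112.5 CPM and 233.7 CPM in HE cells. Jup, a junction linker, was at 69.6 CPM in EHT cells and 314 CPM in HE cells. Gja4, a connexin, was at 266.4 CPM in 24 EHT cells and 1827 CPM in 38 HE cells. Klf4, a flow-induced factor, had 15.9 CPM in 5 EHT cells and 100.2 CPM in 18 HE cells. Its log2 ratio of -2.65 became -4.90 without the EHT cell that had no read of Kit, Runx1, Gfi1 or Spi1.

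Of 21 measured basement membrane and matrix genes 17 were lower and 1 was higher, with a median log2 ratio of -2.32. Nid1, which links laminin to collagen, was at 42.9 CPM in 19 EHT cells and 485 CPM in 36 HE cells. Lama4, a laminin chain of vessels, was at 9.23 CPM in 10 EHT cells and 87.2 CPM in 21 HE cells. Col5a2, a fibrillar collagen chain, was at 5.05 CPM in 4 EHT cells and 659 CPM in 38 of 39 HE cells, a log2 ratio of -7.03 (-7.37 to -6.70). Of the HE cells 36 lay above the highest EHT cell, at 82.9 CPM. Mfap5, an elastic fibre protein, had 1 read in EHT cells and 758 reads in 10 HE cells, a ratio of 0.00150 without the floor of 3 reads, with a log2 interval of -14.69 to -6.90.

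BMP and TGF-beta genes had 19 measured members, 11 lower and 1 higher (median log2 ratio -1.18). Bmpr1a, a BMP receptor, was at 10.2 CPM in EHT cells and 86.1 CPM in HE cells, and Id2, a BMP target, at 36.1 CPM and 363 CPM. Tmem100, a membrane protein of arterial endothelium that responds to BMP, was at 3.65 CPM in 3 EHT cells and 399 CPM in 24 HE cells (log2 ratio -6.77). Dhh, the hedgehog ligand of endothelium, was at 2.46 CPM in 2 EHT cells and 102.7 CPM in 24 HE cells (log2 ratio -5.39). Without the EHT cell that had no read of Kit, Runx1, Gfi1 or Spi1 the log2 ratio of Dhh was -6.99. Sulf2, which trims sulfate from matrix sugars, was at 2.99 CPM in 3 EHT cells and 124.6 CPM in 22 HE cells.

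Further genes with the lowest ratios had few reads in EHT cells. Ntng1, an adhesion protein best known from axon guidance, had none in EHT cells and 67.5 CPM in 14 HE cells, at least 339-fold lower. Plat, tissue plasminogen activator, had 1 read in EHT cells and 1013 reads in 10 HE cells. Lmo7 and Afap1l2, a pair of actin-linked proteins, had 2 and 3 reads in EHT cells and 628 and 680 reads in HE cells, and St8sia6, a sialic acid transferase, and Dlg5, a polarity protein, had 12 and 7 reads in EHT cells and 1012 and 712 reads in HE cells. These 6 genes were each read in 10 to 14 of the 39 HE cells.

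Part of the cell division genes were higher in EHT cells. Of 20 measured mitosis genes 9 were higher and none was lower (median log2 ratio 1.22), and of 24 DNA replication genes 9 were higher and none was lower (0.74), against 14.4% of all measured genes that were higher. Bub1b, a spindle checkpoint kinase, was at 96.2 CPM in 21 EHT cells and 12.1 CPM in 5 HE cells (log2 ratio 2.99, 2.77 to 3.20). Kif11 and Aurka, a spindle motor and a spindle kinase, were at 93.04 CPM and 85.3 CPM in EHT cells and at 32.8 CPM and 33.2 CPM in HE cells. Dut and Mcm7, which supply nucleotides and the replication helicase, were at 229.1 CPM and 191.1 CPM in EHT cells, each read in 41 cells, and at 69.6 CPM and 72.4 CPM in HE cells, read in 15 and 21. With every cell thinned to 100000 reads, a median of 13 of the 20 mitosis genes was read per EHT cell and 2 per HE cell. The E10.5 set gave medians of 19 and 14 mitosis genes per cell. None of its 20 mitosis and 24 replication genes was higher or lower, against 6.74% and 12.7% of all genes measured there. The difference between the sets was not tested. Cyclin-dependent kinase inhibitors, which brake division, had 3 measured members, and none was past 2-fold.

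Ribosome biogenesis had 22 measured genes, 6 higher and none lower (median log2 ratio 0.91). Nop2, a ribosomal RNA methyltransferase, was at 89.9 CPM in 35 EHT cells and 14.4 CPM in 12 HE cells. Polr1b, a subunit of RNA polymerase I, was at 62.9 CPM in EHT cells and 18.1 CPM in HE cells. Of 17 measured glycolysis genes 3 were higher and none was lower (median 0.39), a share near the 14.4% of all measured genes. Gapdh, of these, was read in every cell of both gates, at 689 CPM in EHT cells and 296 CPM in HE cells. None of 20 respiratory chain genes was past 2-fold (median 0.22). Of 21 measured interferon and inflammatory response genes 8 were higher and none was lower, with a median of 0.79. Ifitm1, an interferon-induced membrane protein, was at 1113 CPM in EHT cells and 138.999 CPM in HE cells by summed reads (log2 interval 2.94 to 3.06, 8.004-fold). Per cell, Ifitm1 had a median of 772 CPM in EHT cells (103.9 to 4160) and of 4.18 CPM in HE cells (0 to 790.7), and 19 HE cells had no read. The interferon genes Irf7 and Isg15 were read in only 6 and 4 EHT cells.

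Genes of other tissues and of tissue dissociation were set beside these results. Dissociation stress genes had 14 measured members, 8 lower in EHT cells and none higher, with a median log2 ratio of -1.22. Hspa1a and Hspa1b, near-identical heat shock genes whose values are uncertain apart, were at 3.25 CPM and 2.26 CPM in EHT cells and at 163.5 CPM and 80.4 CPM in HE cells, where 21 and 24 of 39 cells had reads. In the E10.5 set the values of Hspa1a were 31.5 CPM in EHT cells and 46.6 CPM in HE cells. The summed dissociation list had a median of 1095 CPM per EHT cell (239.8 to 6997) and 2458 CPM per HE cell (198.1 to 10587), and its part in the results on endothelial genes was not tested. Mesenchyme genes had 8 measured members, 2 higher and 4 lower. Their sum was a median of 16.4 CPM per EHT cell (0 to 513) and 141.02 CPM per HE cell (0 to 1853), with Col1a1 and Twist2 at 0 in both gates. Of the 4 lower genes, Col3a1, a collagen of connective tissue, had 1.66 CPM in EHT cells and 126.9 CPM in 12 HE cells. The 2 higher genes were Dlk1 and Postn. Dlk1 was at 12.02 CPM in 7 EHT cells and 0.234 CPM in 1 HE cell. Postn was at 13.6 CPM in 5 EHT cells and 0.701 CPM in 1 HE cell. Of smooth muscle genes 4 were measured and 2 were lower, with Des and Rgs5 at 0 in both gates. The sympathetic list had 2 measured members, 1 of them lower: Stmn2, a microtubule protein of neurons, was at 66.4 CPM in 10 EHT cells and 639 CPM in 36 of 39 HE cells, while Phox2a, Th and Dbh, markers of sympathetic neurons, had no read in either gate. Of 2 measured epithelial genes, Krt18 was within 2-fold and Cldn7, a claudin, lay at the limit, with 9.56 CPM in EHT cells and 19.1 CPM in HE cells.

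**Figure D2:**
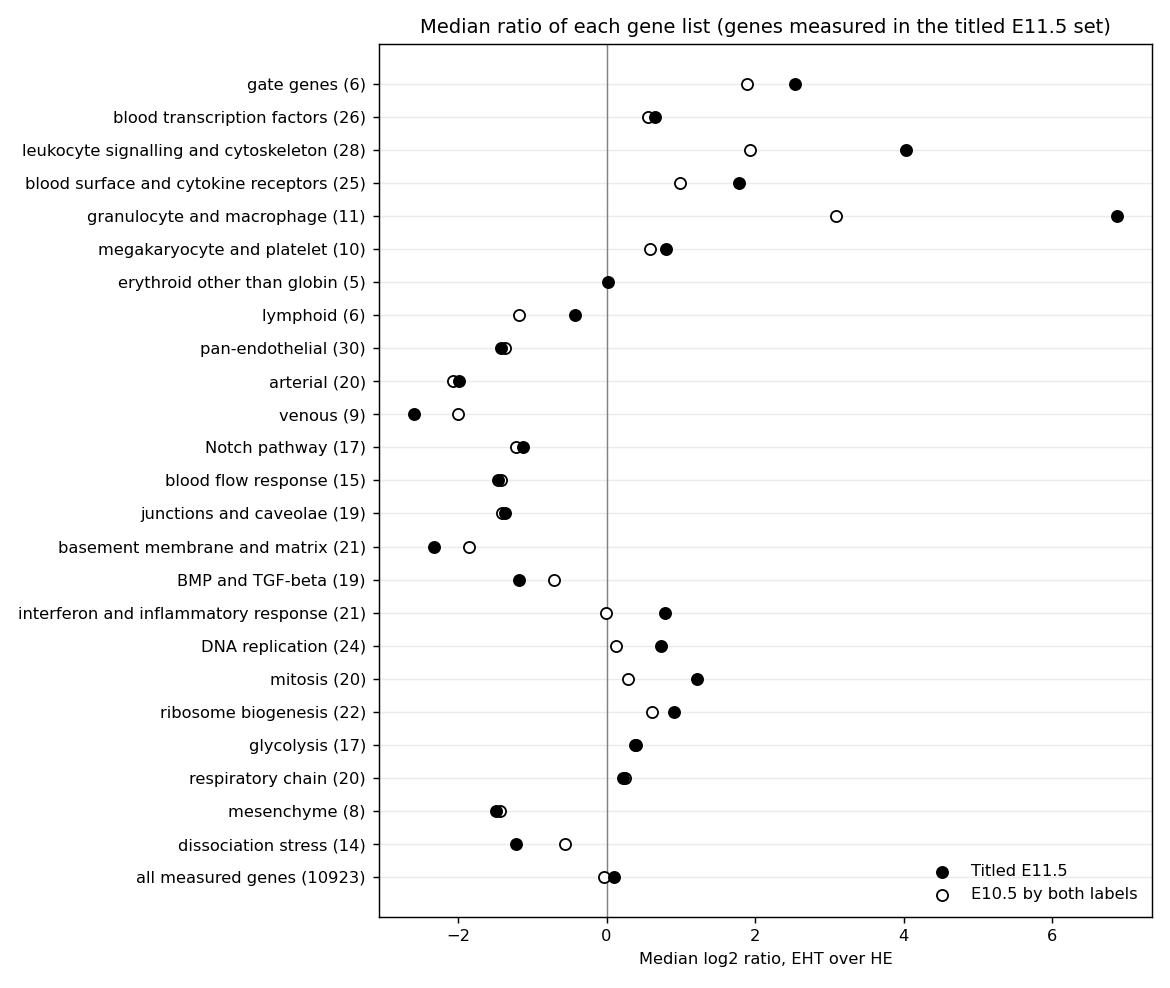
Median log2 ratio of EHT over HE for each gene list with at least 5 measured genes, in the titled E11.5 set (filled) and the E10.5 set (open). Leukocyte signalling stands at 4.04 and 1.94, mitosis at 1.22 and 0.28, pan-endothelial genes at -1.42 and -1.37 and arterial genes at -1.99 and -2.06. Each median is over the members measured in its own set, such as 28 and 24 for leukocyte signalling.

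Within single EHT cells the endothelial and blood genes were read together. Spi1 and Cdh5 were both read in 40 of 42 EHT cells and in 4 of 39 HE cells, and Ptprc and Cdh5 in 31 EHT cells and no HE cell. At 100000 reads per cell, EHT cells held reads of 15 to 29 (median 25) of the 30 pan-endothelial genes and HE cells held 21 to 30 (median 27). Of 60 blood genes, the transcription factors together with the leukocyte list, EHT cells held 24 to 55 (median 39.5) and HE cells 8 to 33 (median 18). The summed endothelial list was at 2285 to 15908 CPM per EHT cell (median 7030) and 10388 to 29667 CPM per HE cell (median 22957). The groups overlapped: 9 EHT cells exceeded the lowest HE cell, and 4 HE cells were below the highest EHT cell. The summed blood list was at 4730 to 13882 CPM per EHT cell (median 8036) and 1965 to 7513 CPM per HE cell (median 4080). In that sum 12 HE cells were above the lowest EHT cell and 13 EHT cells below the highest HE cell. By summed reads of each gate, its transcription factors were at 4637 CPM in EHT cells and 3345 CPM in HE cells. Its leukocyte genes were at 3839 CPM and 820 CPM. The factors include genes that endothelium also expresses, such as Gata2 and Lmo2.

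EHT cells with higher endothelial sums had lower blood sums, with Pearson's r of -0.62 and Spearman's rho of -0.67 over the 42 cells, which share a total and have Tal1 in both lists. In HE cells these were -0.30 and -0.38, and in E10.5 EHT cells -0.72 and -0.73. These are descriptions over cells of 1 sample.

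**Figure D3:**
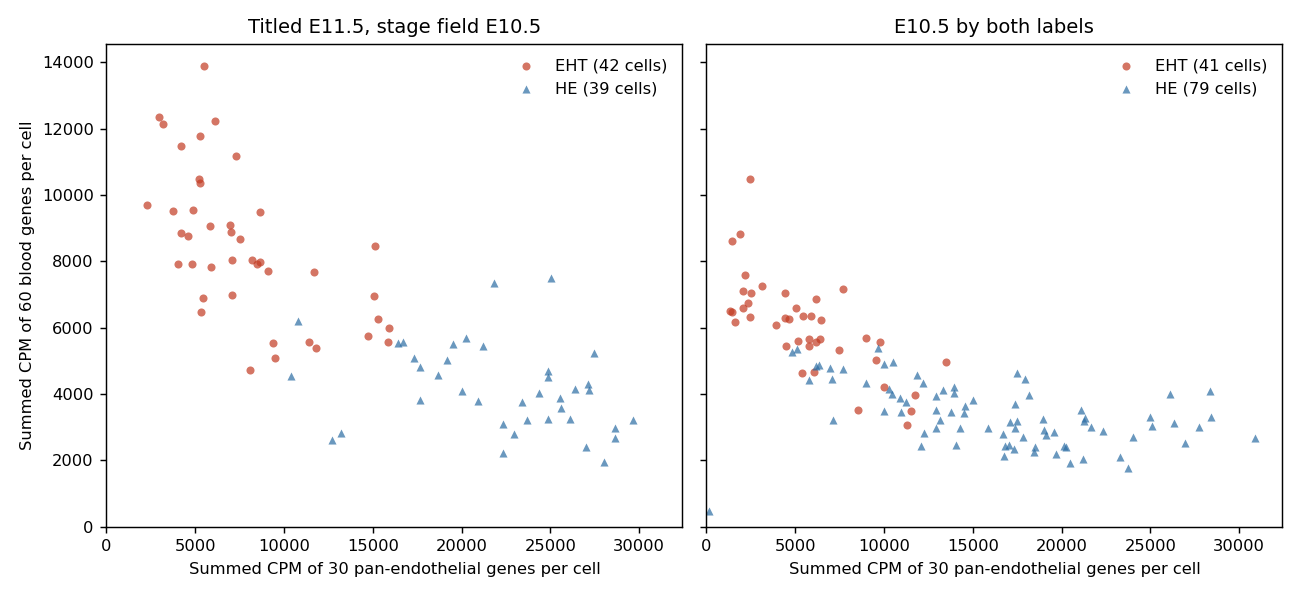
Summed CPM of 60 blood genes against that of 30 pan-endothelial genes in each cell, for EHT (circles) and HE (triangles) cells titled E11.5 (left panel) and of the E10.5 set (right panel). EHT cells titled E11.5 have medians of 7030 and 8036 CPM for the endothelial and blood sums, and HE cells 22957 and 4080 CPM. The blood genes include transcription factors that endothelium also expresses. An E10.5 HE cell near the origin had 162.4 CPM and 481 CPM.

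The set with E10.5 in both labels shares no cell with the titled E11.5 set, and only values side by side can be given. There 10524 genes were measured, 709 of them (6.74%) higher in EHT cells and 1332 (12.7%) lower. Of the 1572 higher genes of the titled E11.5 set 369 were also higher in the E10.5 set, which is 23.5% of the titled E11.5 list and 52.05% of the E10.5 list. Of the 1309 lower genes 654 were shared, 49.96% and 49.1% of the lists. Among higher genes measured in both sets 1008 of 1363 had the same sign (73.95%), and among lower genes 980 of 1076 (91.1%). In the opposite direction, 65 of the 1572 higher genes were at least 2-fold lower in the E10.5 set. Of the 1309 lower genes, 10 were at least 2-fold higher there. Leukocyte signalling genes were higher in 16 of 24 measured genes in the E10.5 set (median log2 ratio 1.94), and granulocyte and macrophage genes in 4 of 5 (3.08). Pan-endothelial genes were lower in 27 of 30 there (median -1.37), and the arterial median was -2.06. The interferon list had a median of -0.01. Each median covers the members measured in its own set, and the difference between the sets in these medians was not tested.

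Of the 54 named genes that were higher in titled E11.5 EHT cells, 48 had a ratio above 0 in the E10.5 set. The exceptions were Csf1r, Irf7, Isg15 and Kif20a, with ratios below 0, and C1qb and Cx3cr1, which were under the floor of 3 reads in both gates. Of the 48 named lower genes 46 were below 0, the exceptions being Actc1 and Heyl.

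**Figure D4:**
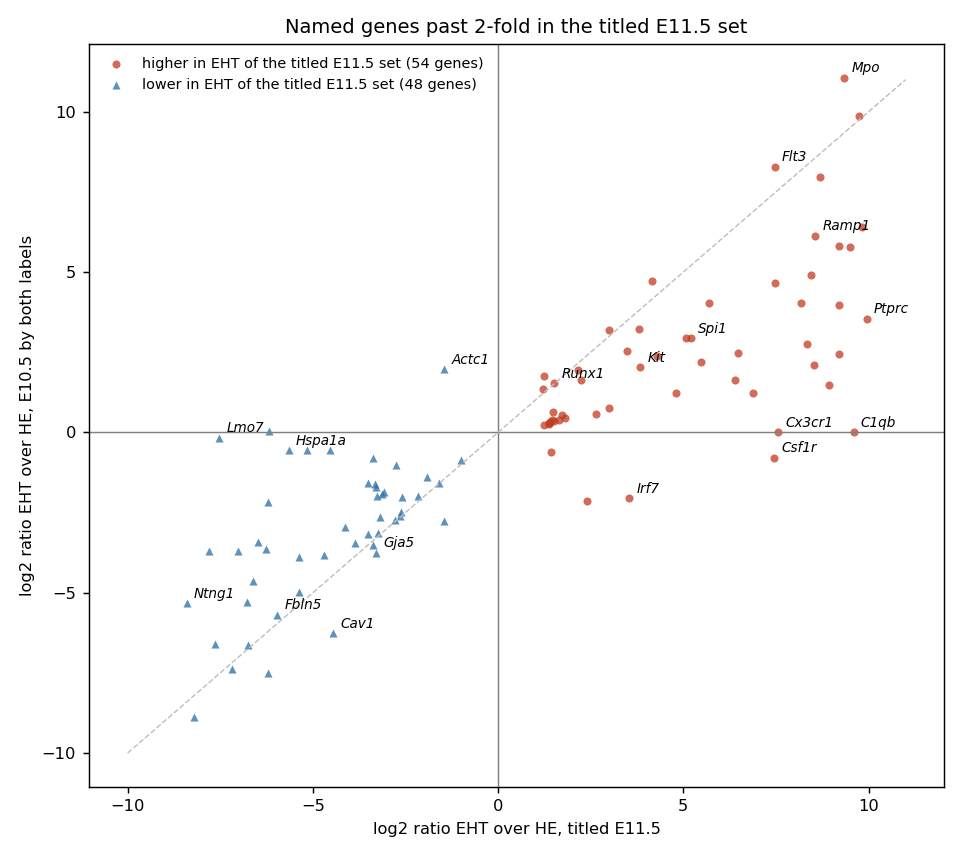
log2 ratio of EHT over HE in the titled E11.5 set (horizontal) against the E10.5 set (vertical) for the named genes past 2-fold in the titled E11.5 set; the dashed line marks equal ratios. Genes under 3 reads in both E10.5 gates are drawn at 0. On the same side of 0 lie 48 of 54 higher genes and 46 of 48 lower genes.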

How the data were processed

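Counts of reads per gene and cell were deposited by the authors as whole numbers without normalization. Per the submitters' processing notes, STAR 2.4.2a and HTSeq 0.6.1p1 were used, along with bcl2fastq and R 3.6.2, with GRCm38 as the build. The annotation release and the strand setting were not given in the sources used here. Reads of overlapping or antisense genes and of near-identical copies cannot be told apart. The table copy used here ends within a row; 36131 genes were held whole, and 1 cut gene and later identifiers were not analysed here.

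Cells were grouped by title and kept as stated. Reads were summed per gate and scaled to CPM with exact Poisson intervals; sums under 3 reads were set to 3 in bounds, ranks and list medians, while genes with 1 to 3 reads in a gate are printed with the ratio of their reads. Shares of cells have exact Clopper-Pearson intervals. No doublet caller was run. The calculation (Python 3.11.15, scipy 1.17.1) was tested on simulated data.

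Named genes were the 15 highest and 15 lowest, ranked by ratio with 1 CPM added, among genes past 2-fold with 20 CPM and reads in 25% of cells of the higher gate, without mitochondrial, ribosomal protein, predicted and sex-linked marker genes, up to 4 members of each of 28 lists with the largest ratios, and the gate and marker genes. Positions are from the GENCODE annotation of GRCm38. The cells, lists and rules were chosen with earlier results of these data known. The alternatives tried were other cell filters, leaving out cells that stand apart, thinning, other scalings, minimum CPM and fold limits.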

Additional observations from a re-analysis of the deposited data

Results flagged for a closer look

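Actc1, a cardiac and early smooth muscle actin, had opposite signs in the sets. Its log2 ratio of EHT over HE was -1.452 in the titled E11.5 set, with 7.77 CPM in 4 of 42 EHT cells and 21.2 CPM in 5 of 39 HE cells. In the E10.5 set it was 1.97, with 80.7 CPM in 5 of 41 EHT cells and 20.6 CPM in 6 of 79 HE cells. The difference was not tested, and so few cells carry the reads that leaving out the highest cell of each gate gave -2.33 in the titled E11.5 set.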

How the results depend on the processing

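Counts of genes past 2-fold followed the limits chosen. A minimum mean of 1 CPM gave 2662 higher genes, and one of 20 CPM gave 768 higher and 810 lower; a 1.5-fold limit gave 2724 and 2153, and a 4-fold limit 580 and 495. Under the other settings tried, higher genes numbered 1375 to 1877 and lower genes 1187 to 1531 (cell filters, thinning, scaling, cells left out), and no gene measured under both settings went over from higher to lower or back. The genes called changed more than these totals. With at least 300000 reads per cell 1785 genes were higher, among them 1298 of the 1572 of the main setting. There 1515 were lower, among them 1117 of the 1309. Median-of-ratios scaling lowered all log2 ratios by 0.09 and gave 1375 higher and 1455 lower genes. Without the 5 EHT cells with macrophage markers, the log2 ratio of Cx3cr1 was -0.83 and that of Mrc1 -3.27. That setting was chosen after seeing the data. So were those without the 3 HE cells of under 3000 genes or the EHT cell without reads of Kit, Runx1, Gfi1 and Spi1. Of the 54 higher and 48 lower named genes, Prim1, Pfkp, Cldn7 and Actc1 were not past 2-fold with at least 300000 reads per cell. Leaving out the highest cell of each gate moved 35 of 120 named ratios by over 1.5 times, so ratios of genes read in few cells are imprecise. No paired analysis was possible because each gate is 1 sample. Reads in 0 cells allow a share of cells with reads of up to 8.41% of EHT cells or 9.03% of HE cells (upper Clopper-Pearson bounds), and say nothing of cells that express a gene without a read.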
